A study of Mus musculus with 18 samples.

Results

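The comparison set 3 arrays of T cells whose only remaining LAT protein should carry the Y136F change (Y136F) against 3 arrays of cells with functional LAT (WT). All are titled as 4 weeks of tamoxifen. The titles do not say whether this counts the dosing or the time since it began. The arrays were chosen by their titles and are 6 of the 18 arrays of the series. All autosomal genes that could be measured were described, 16409 of the 32430 genes and unnamed sequences tested. Each array held RNA from the CD44low CD4+ T cells of 1 mouse, sorted from spleen as naive cells, and each group held 3 mice of the C57BL/6 background. By the titles, the Y136F mice carried a tamoxifen-inducible Cre (ERCre+) with a floxed and a mutant Lat allele (LAT f/m), and the WT mice lacked that Cre (ERCre-) and had a floxed and a null allele (LAT f/-). The series text instead describes all mice as Cre-positive. If the titles hold, the Y136F allele and the presence of Cre cannot be told apart here. All 3 Y136F mice were female and all 3 WT mice were male, so sex and genotype cannot be told apart within these 6 arrays either. The other 12 arrays held Y136F and WT mice titled as 1 week of tamoxifen and LAT knockout mice (LAT KO, ERCre+ LAT f/-, in which the floxed allele should be deleted and none left) at both times. Nothing in the labels says which cells drive the Cre, so deletion in other cell types was not measured.

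LAT is a membrane adaptor that becomes phosphorylated when the T cell receptor (TCR) is engaged. The tyrosine that the Y136F change removes binds phospholipase C-gamma 1, the enzyme that starts calcium and diacylglycerol signals, while its other tyrosines recruit the GRB2 and GADS adaptors. Mice that carry the Y136F allele are known for a lymphoproliferative disorder of CD4+ T cells with T helper type 2 (Th2) features. Complete loss of LAT impairs TCR signalling.

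The 6 arrays had a 75th percentile of spot signal between 1124 and 1542 intensity units and 91.8% to 95.9% of spots well above background. No spot was saturated. Sex-linked genes matched the labelled sex in these 6 arrays but contradicted it in 2 LAT KO arrays, replicate 2 of 4 weeks and replicate 1 of 1 week (sex-mismatched below). Correlations between the arrays of a group over all probes lay between 0.98 and 0.99, and those between groups between 0.96 and 0.98. Cd4 stood at 3.03, 2.93 and 2.98 in WT and 2.97, 2.93 and 3.0 in Y136F cells, a difference of -0.01 ± 0.15 (SE). These levels are scaled log2 signals, log2 of the processed intensity minus that of the array's 75th percentile, so that 0 is the 75th percentile; a difference of 1 is a doubling. Cd44, whose protein was gated low in the sort, stood at 1.19, 0.43 and 0.53 in WT and 1.23, 1.27 and 1.22 in Y136F cells, a difference of 0.52 ± 0.26 that did not pass the test (adjusted p = 0.33).

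After 4 weeks, 470 autosomal genes were higher and 189 lower in Y136F than in WT cells at an adjusted p of 0.05 in limma, which is 2.86% and 1.15% of the 16409 tested. Genes of DNA replication and mitosis, granzymes, effector cytokines, chemokine receptors, integrins and Th2-linked factors were among the higher genes, and naive T cell genes were among the lower ones. At least 2-fold differences were found in 292 of the higher and 69 of the lower genes, and at least 8-fold differences in 15 and 2. The median over all autosomal genes was -0.17, and it was -0.08 after quantile normalization and -0.07 in the deposited series matrix, so a list median near those values is no shift. The groups did not overlap, with every Y136F array on 1 side of every WT array, for 466 of the 470 and 182 of the 189; among the 15836 genes with a value on all 6 arrays, 11.5% lay wholly above and 17.6% wholly below WT. WT and Y136F mice of the same replicate number shared a slide. As the groups differ in sex, the model was also fitted with a sex term. Over all 18 arrays it called 32 higher and 25 lower genes. Without the 2 sex-mismatched LAT KO arrays, that is over 16 arrays, it called 232 and 77, and 201 of the 470 and 52 of the 189 kept their call; the 16 arrays without a sex term gave 660 and 293. Among the genes named below whose call held with any 1 array left out, the sex term over 16 arrays ended some calls. These were the calls of Alcam, Areg, Asf1b, Bace2, Cd55, Cdt1, E2f3, Ebi3, Gzmk, Id2, Il6st, Itpr1, Jak2, Mcm3, Parp12, Rab6b, Rad54l, Scg5, Spaca1 and Tpi1. Their adjusted p with this term ran from 0.0508 to 0.258 in limma. Without WT replicate 3 the counts were 263 higher and 85 lower, and without WT replicate 1 they were 468 and 308. The fit without WT replicate 2 gave 270 and 81; leaving out Y136F replicates 1, 2 and 3 gave 346 and 115, 308 and 99, and 265 and 83.

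**Figure D1:**
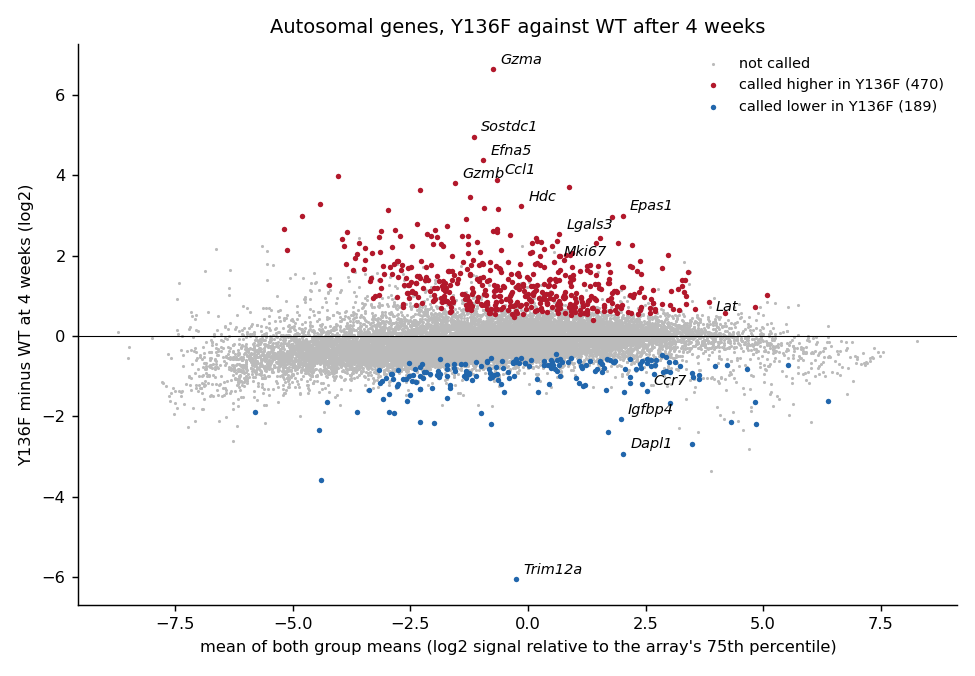
Each point is 1 autosomal gene, plotted by its mean scaled log2 signal over the 6 arrays (x axis) and its Y136F minus WT difference at 4 weeks in log2 units (y axis); coloured points passed an adjusted p of 0.05 in limma. The 470 higher and 189 lower genes spread over the whole range of signal, with Gzma and Trim12a at the extremes.

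Lat itself stood at 3.29, 3.63 and 3.85 in the WT arrays and 4.43, 3.86 and 3.93 in the Y136F arrays, and the difference of 0.48 ± 0.23 (SE, n = 3 per group) did not pass the test (adjusted p = 0.318). All 3 Y136F values were above the highest WT value, the nearest by less than 0.1. The probe's place relative to the Y136F site is not given in the files, so this level does not show which allele was transcribed. Against LAT KO cells of 4 weeks, Lat was higher in Y136F cells by 1.37 ± 0.23 (adjusted p = 0.00281). It was higher by 1.32 without the LAT KO array that goes against its label (adjusted p = 0.0115). Without that array, the LAT KO minus WT difference of Lat was -0.84 ± 0.26. That difference did not pass the test (adjusted p = 0.547 by limma). Of 22 measured genes of the LAT signalosome, 1 rose and 1 fell (median 0.17). Dok2, an adaptor that dampens LAT signalling, rose by 1.13 ± 0.14 (adjusted p = 0.000287); it stood at 1.29, 1.22 and 1.31 in the WT arrays and 2.45, 2.31 and 2.44 in the Y136F arrays. Grap2, which encodes the adaptor GADS, fell by 0.61 on the log2 scale (adjusted p = 0.0302). Plcg1, the gene of the enzyme that the changed tyrosine would bind, differed by 0.15 ± 0.21 (adjusted p = 0.713). The call of Grap2 was lost when single arrays were left out (adjusted p up to 0.13), and that of Dok2 was kept (up to 0.00284).

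Cell cycle genes made up 85 of the 470 higher genes. All gene lists used here were written with earlier results of these data known, so their shares describe the listed members only. Of 224 measured members of 9 cell cycle lists, 85 rose and 1 fell, and the median difference was 0.56 against -0.17 over all genes. Leaving out 1 array in turn gave 59 to 81 rises. With the sex term, 6 rises were called over all arrays and 49 without the sex-mismatched LAT KO arrays. Among 17 genes of entry into S phase, 8 rose and none fell (median 0.69). Cdk6, a kinase that releases cells from G1, stood at 0.19, 0.00 and -0.30 in the WT arrays and 1.42, 1.36 and 1.31 in the Y136F arrays, a rise of 1.4 ± 0.18 (adjusted p = 0.000261). E2f2, an activator of replication genes, stood at 1.48, 1.34 and 1.37 in the WT arrays and 2.80, 2.26 and 2.82 in the Y136F arrays and rose by 1.23 ± 0.18 (adjusted p = 0.000889). E2f1 rose by 1.51 ± 0.28 and Ccne2 by 1.27 ± 0.19, but a second E2f1 probe showed a difference of 0.38. Of 46 origin licensing and replication fork genes, 13 rose and none fell (median 0.53). Mcm3, a subunit of the replicative helicase, stood at 1.20, 0.89 and 0.82 in the WT arrays and 1.85, 1.86 and 1.97 in the Y136F arrays, 1.89-fold higher (difference 0.92 ± 0.15, adjusted p = 0.00231). Mcm10, which helps to start replication forks, rose by 1.25 ± 0.17, and Cdt1, a loader of the helicase, by 0.94 ± 0.14. No Y136F array overlapped a WT array for these 7 genes, and all of them kept their call when any 1 array was left out, but those of Mcm3 and Cdt1 were lost with the sex term over 16 arrays (adjusted p = 0.239 and 0.0508 by limma). Mcm2, another helicase subunit, differed by 0.55 ± 0.20 and did not pass (adjusted p = 0.162).

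Of 24 genes of nucleotide synthesis, 5 rose and none fell, with a median of 0.01. Those 5 supply deoxynucleotides. Rrm2, a subunit of ribonucleotide reductase, stood at -2.16, -2.62 and -2.79 in the WT arrays and -0.35, 0.14 and 0.12 in the Y136F arrays, which is 5.64-fold higher (difference 2.50 ± 0.40, adjusted p = 0.00174). Tyms, thymidylate synthase, rose by 1.72 ± 0.27 and Tk1, thymidine kinase, by 1.5 ± 0.25, whereas the calls of Rrm1 (1.04 ± 0.22) and Dut (0.90 ± 0.20) were lost when single arrays were left out (adjusted p up to 0.0528 and 0.0736). Among 17 homologous recombination genes, 3 rose and 1 fell. Rad54l, a DNA translocase of this repair, stood at -1.23, -1.20 and -0.85 in the WT arrays and -0.33, 0.07 and -0.05 in the Y136F arrays and rose by 0.99 ± 0.17 (adjusted p = 0.00266), a call lost with a sex term over the 16 arrays (adjusted p = 0.0758 by limma). Fanci, of the Fanconi anaemia repair pathway, went the other way and fell by 0.94 on the log2 scale (adjusted p = 0.00499), but a second probe showed -0.18. Of 7 inhibitors of cyclin-dependent kinases, only Cdkn1a rose (0.84 ± 0.19, adjusted p = 0.0179), and that call was lost without single arrays (up to 0.0862).

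Among the cell cycle lists, that of mitotic kinases and cyclins had the largest median difference. Of 29 mitotic kinases, cyclins and regulators of the anaphase-promoting complex, 17 rose and none fell (median 1.25). Of 35 centromere and kinetochore genes 15 rose, of 27 spindle motor and cytokinesis genes 10 rose, and of 22 condensin and chromatin genes 13 rose, with medians of 0.65, 0.62 and 0.80; none of them fell. Mki67, the proliferation antigen Ki-67, stood at -0.43, -0.75 and -0.56 in the WT arrays and 1.72, 1.98 and 1.67 in the Y136F arrays, 5.15-fold higher (difference 2.37 ± 0.30, adjusted p = 0.000261). Top2a, the topoisomerase that untangles chromosomes, stood at -0.67, -1.18 and -1.05 in the WT arrays and 1.20, 1.20 and 1.00 in the Y136F arrays, 4.28-fold higher (2.10 ± 0.28, adjusted p = 0.000403). Both genes separated the groups by more than the range within either group. Aurka, a kinase of spindle assembly, stood at -2.04, -2.04 and -1.90 in the WT arrays and -0.34, -0.53 and -0.53 in the Y136F arrays and rose by 1.52 ± 0.20 (adjusted p = 0.000521). Aurkb, its partner kinase of the chromosomal passenger complex, stood at -5.91, -6.42 and -5.88 in the WT arrays and -3.38, -2.61 and -2.33 in the Y136F arrays and rose by 3.30 ± 0.58 (adjusted p = 0.00303). Its probe was well above background on 2 of the 3 WT arrays, and its difference ran from 1.45 to 4.25 over the 23 alternative settings, so its size is uncertain. Foxm1, a transcription factor of mitotic genes, stood at -2.02, -1.91 and -1.72 in the WT arrays and -0.27, -0.07 and 0.13 in the Y136F arrays and rose by 1.81 ± 0.24 (adjusted p = 0.000407). Cenpa, the histone variant of centromeres, stood at -0.88, -0.96 and -1.16 in the WT arrays and 0.62, 0.37 and 0.63 in the Y136F arrays and rose by 1.54 ± 0.19. Cdc25b, a phosphatase that activates the mitotic kinase, rose by 1.59 ± 0.15 with the smallest adjusted p of the mitotic genes named (1.53e-05). These 7 genes kept their call when any 1 array was left out and with a sex term over the 16 arrays. For Cdk1, the mitotic kinase itself, the probe used rose by 2.62 ± 0.44 (adjusted p = 0.00231) while a second probe, the brighter one in WT arrays, showed -0.28, and the call was lost with the mean over probes; for Cenpf a second probe showed 0.26 beside 1.90 ± 0.25. Bub1 (-0.27 ± 0.25) and Ccnb1 (1.25 ± 0.42), of the spindle checkpoint and of mitotic entry, did not pass (adjusted p = 0.589 and 0.138). A second Bub1 probe, the dimmer one in WT arrays, showed 2.07, so the Bub1 probes disagree.

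**Figure D2:**
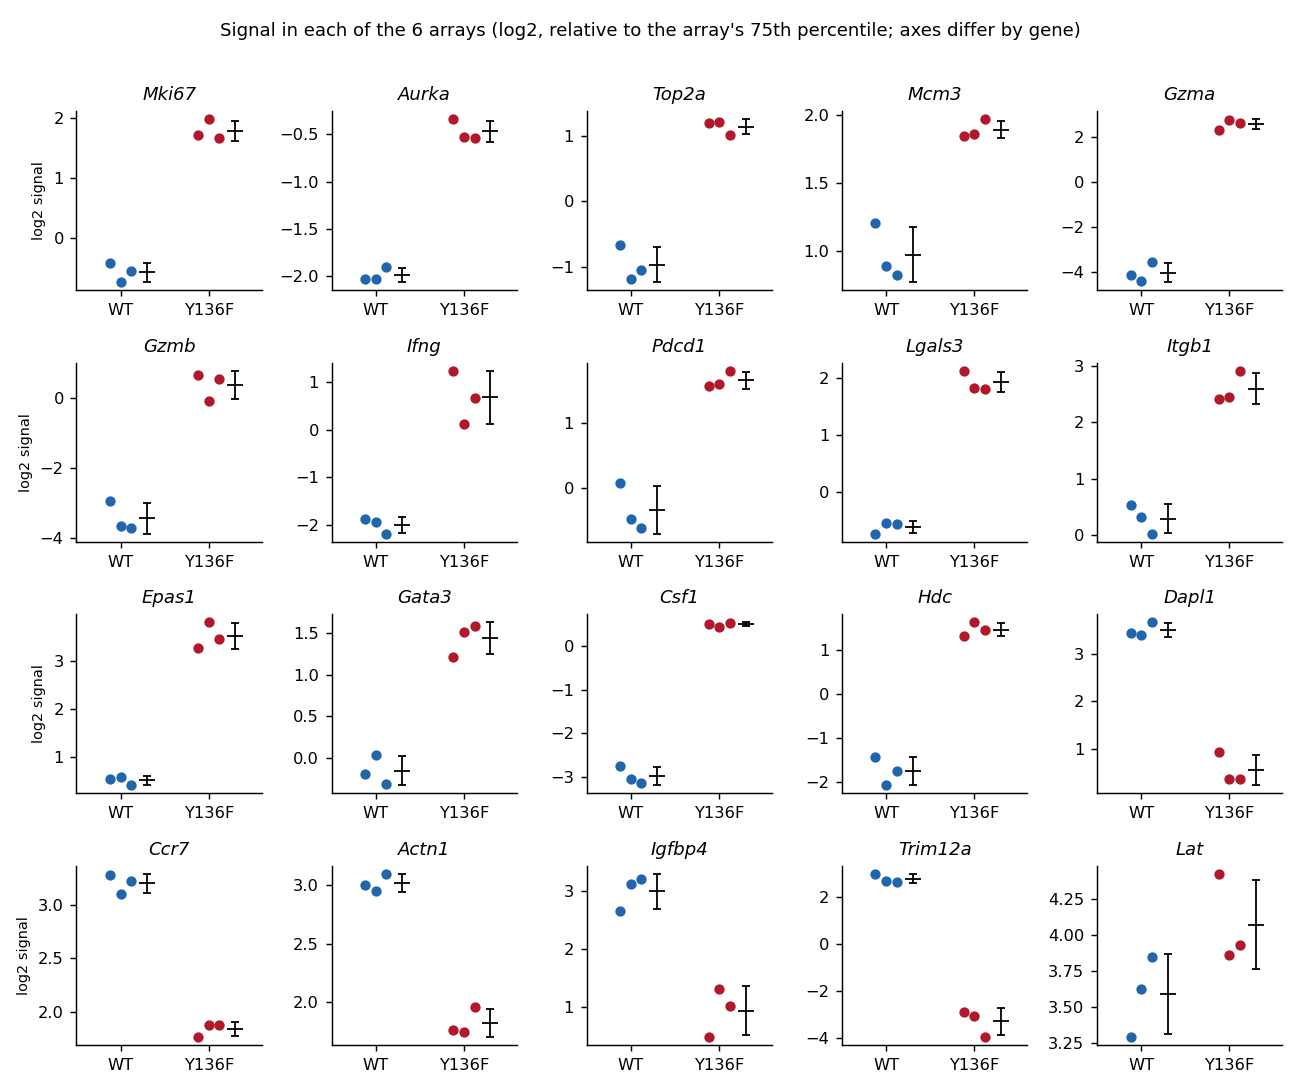
Scaled log2 signal (y axis; 0 is the array's 75th percentile) of 20 genes in the 3 WT (left) and 3 Y136F arrays (right) of 4 weeks; points are arrays and the bar with its error is the mean ± SD. For 19 of the genes the Y136F arrays stand clear of the WT arrays; for Lat the nearest values of the groups almost meet.

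Promoters of the cell cycle genes were compared by their letters, because these genes rose together. The windows run from 250 bases before to 50 after the gene start, as listed by RefSeq on GRCm38.p6. The searched motifs were the cell cycle homology region (CHR, TTTGAA or TTCGAA), an E2F motif (TTTCCCGC, TTTGGCGC, TTTGCCGC or TTTCGCGC) and the CCAAT box, on both strands. CHR letters are the element through which mitotic genes are known to be held down in resting cells by the DREAM complex, and E2F letters have that role at replication genes. Shown are 5 mitotic promoters with the CHR letters, and that of Mcm3 with the E2F letters, in capitals, each from 5' to 3' on the gene's strand. They are Cdc25b (chr2:131186698-131186997, plus strand), Aurka (chr2:172370521-172370820, minus strand), Cenpa (chr5:30666636-30666935, plus strand), Mki67 (chr7:135716330-135716629, minus strand), Top2a (chr11:99024140-99024439, minus strand) and Mcm3 (chr1:20820263-20820562, minus strand).
Cdc25b: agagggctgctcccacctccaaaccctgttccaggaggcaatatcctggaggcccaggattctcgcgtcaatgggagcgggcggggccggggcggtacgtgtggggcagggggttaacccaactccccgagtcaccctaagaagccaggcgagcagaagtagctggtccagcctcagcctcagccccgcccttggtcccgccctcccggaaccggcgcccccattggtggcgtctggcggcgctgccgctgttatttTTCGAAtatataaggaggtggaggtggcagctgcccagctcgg
Aurka: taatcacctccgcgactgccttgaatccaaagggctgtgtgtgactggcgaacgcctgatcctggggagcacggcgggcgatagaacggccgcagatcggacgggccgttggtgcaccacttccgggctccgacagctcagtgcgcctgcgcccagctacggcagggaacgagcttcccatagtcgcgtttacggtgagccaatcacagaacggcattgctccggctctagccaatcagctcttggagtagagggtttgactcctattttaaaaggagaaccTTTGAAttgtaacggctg
Cenpa: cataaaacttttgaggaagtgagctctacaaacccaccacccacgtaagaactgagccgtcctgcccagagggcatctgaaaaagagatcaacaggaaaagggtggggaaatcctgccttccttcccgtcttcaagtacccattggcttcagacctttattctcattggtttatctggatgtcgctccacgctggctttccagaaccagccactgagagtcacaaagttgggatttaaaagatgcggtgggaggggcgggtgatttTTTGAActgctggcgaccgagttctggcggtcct
Mki67: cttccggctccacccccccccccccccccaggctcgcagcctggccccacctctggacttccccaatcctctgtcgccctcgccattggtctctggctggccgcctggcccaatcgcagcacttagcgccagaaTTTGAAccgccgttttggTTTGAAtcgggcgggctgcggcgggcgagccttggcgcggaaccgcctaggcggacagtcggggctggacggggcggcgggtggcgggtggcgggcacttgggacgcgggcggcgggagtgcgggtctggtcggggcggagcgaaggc
Top2a: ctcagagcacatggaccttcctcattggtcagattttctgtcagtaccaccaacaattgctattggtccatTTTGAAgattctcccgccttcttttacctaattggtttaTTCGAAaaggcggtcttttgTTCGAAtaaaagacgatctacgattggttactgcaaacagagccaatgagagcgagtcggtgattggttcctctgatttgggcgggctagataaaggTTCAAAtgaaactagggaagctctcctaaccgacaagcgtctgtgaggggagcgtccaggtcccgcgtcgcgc
Mcm3: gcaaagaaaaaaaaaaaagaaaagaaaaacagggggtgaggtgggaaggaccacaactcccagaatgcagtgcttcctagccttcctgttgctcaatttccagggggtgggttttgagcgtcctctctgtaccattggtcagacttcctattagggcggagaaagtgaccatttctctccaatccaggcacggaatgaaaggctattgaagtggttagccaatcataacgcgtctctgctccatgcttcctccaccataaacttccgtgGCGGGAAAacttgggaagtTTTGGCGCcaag

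Of the 85 cell cycle genes that rose, 70 had a promoter in the table, and 50% of these held the CHR letters. The share was 32.2% in 115 cell cycle promoters of genes that were not called, 16.8% in 304 promoters of other genes that rose, 9.8% in 153 of genes that fell, 16.5% in 13114 of all autosomal genes tested and 19.2% in all 32851 promoters of the table. The E2F letters stood in 24.3%, 16.5%, 4.93%, 2.61%, 3.14% and 2.26% of the same groups. The CCAAT letters stood in 65.7%, 56.5%, 42.1%, 43.1%, 38.3% and 37.4%. In the windows printed, Top2a held the CHR letters 4 times, Mki67 2 times and Aurka, Cenpa and Cdc25b 1 time each, and Mcm3 held the E2F letters 2 times. A match describes letters only, since binding was not measured.

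Among the gene lists, those of cytotoxic granules and effector function held the second largest number of rises. Over 13 effector lists, 53 of 251 measured genes rose and 8 fell, with a median of 0.25. Leaving out 1 array in turn gave 36 to 51 rises. With the sex term, 5 rises were called over all arrays and 32 without the sex-mismatched LAT KO arrays. Gzma, the trypsin-like granzyme, showed the largest rise of all genes. It stood at -4.15, -4.42 and -3.59 in the WT arrays and 2.34, 2.76 and 2.65 in the Y136F arrays, a 99.6-fold difference (6.64 ± 0.61 in log2, adjusted p = 1.07e-05), so its signal went from well below to well above the 75th percentile of the array. Gzmb, the granzyme that triggers caspases, stood at -2.94, -3.67 and -3.73 in the WT arrays and 0.66, -0.10 and 0.53 in the Y136F arrays, 14-fold higher (adjusted p = 0.000718). Gzmk rose by 2.47 ± 0.45 and Fasl, the death receptor ligand, by 1.25 ± 0.19. Prf1, the pore-forming perforin, went the other way and fell by 0.58 on the log2 scale (adjusted p = 0.0206; 0.06, 0.04 and 0.03 in the WT arrays and -0.64, -0.50 and -0.46 in the Y136F arrays), a call lost without single arrays (adjusted p up to 0.0934 by limma). Among 11 NK-type receptors none passed the test at adjusted p 0.05, and Klrg1 differed by 1.34 ± 0.53 (adjusted p = 0.215). In all, 6 of 19 granule genes rose and 1 fell (median 0.56). One of the 6 was Slpi, a secreted protease inhibitor, whose brighter probe rose by 3.70 ± 0.61 while a second probe showed -0.29.

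Chemokine genes moved singly and in both directions. Ccl1, a Th2-linked chemokine, stood at -2.58, -2.63 and -2.58 in the WT arrays and 0.92, 1.63 and 1.35 in the Y136F arrays, 14.9-fold higher (difference 3.90 ± 0.50, adjusted p = 0.000288). The WT arrays lay within 0.1 of each other and the Y136F arrays within 1. Cxcl16 fell by 1.19 on the log2 scale (adjusted p = 0.0236), a call that was lost without single arrays (up to 0.159). Of 16 chemokine and homing receptors, 3 rose and 1 fell. Ccr2, which draws cells to inflamed tissue, stood at -1.15, -1.78 and -2.02 in the WT arrays and 1.24, 0.39 and 1.00 in the Y136F arrays and rose by 2.53 ± 0.37 (adjusted p = 0.000776). Cxcr6, the receptor for CXCL16, stood at 1.54, 1.06 and 0.65 in the WT arrays and 3.67, 3.18 and 3.21 in the Y136F arrays and rose by 2.26 ± 0.43. Ccr7, the lymph node homing receptor of naive cells, was the one that fell: it stood at 3.28, 3.10 and 3.23 in the WT arrays and 1.76, 1.88 and 1.88 in the Y136F arrays, 2.57-fold lower (difference -1.36 ± 0.16, adjusted p = 0.000114). Ccl1, Ccr2, Cxcr6 and Ccr7 kept their call with any 1 array left out and with the sex term over 16 arrays.

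Of 25 cytokines and growth factors, 4 rose and 1 fell (median 0.02). Ifng, the interferon of type 1 helper and cytotoxic cells, stood at -1.88, -1.94 and -2.18 in the WT arrays and 1.23, 0.13 and 0.66 in the Y136F arrays, 6.38-fold higher (difference 2.67 ± 0.44, adjusted p = 0.00211). Csf1, the macrophage growth factor, stood at -2.74, -3.04 and -3.14 in the WT arrays and 0.49, 0.44 and 0.53 in the Y136F arrays, 11-fold higher (3.46 ± 0.46, adjusted p = 0.000407). The groups stood more than 2 log2 units apart for both genes. Areg, the epidermal growth factor family member amphiregulin, rose by 2.08 ± 0.38, and Ebi3, a subunit shared by interleukins 27 and 35, by 1.45 ± 0.26. Il4, the Th2 cytokine, differed by 0.57 ± 0.35 and did not pass (adjusted p = 0.435). Among 27 cytokine receptors 4 rose and 2 fell. The decoy receptor gene Il1r2 rose by 2.96 ± 0.42 (adjusted p = 0.00074) and Il1r1 by 2.18 ± 0.37, whereas Il6st, the signalling chain gp130, fell by 1.17 on the log2 scale (adjusted p = 0.00308). Of 20 TNF ligands and receptors 4 rose and none fell, led by Tnfsf8 (CD30 ligand, 1.57 ± 0.23) and Tnfsf14 (LIGHT, 1.43 ± 0.29). The SOCS and cytokine feedback list had 3 rises among 13, Cish, Jak2 and Jak3, by 1.09 ± 0.24, 0.80 ± 0.16 and 0.71 ± 0.15; the calls of Cish and Jak3 were lost without single arrays (adjusted p up to 0.0967 and 0.0952).

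Some surface and adhesion genes of antigen-experienced cells rose, though most members of these lists did not pass. Of 22 integrin and adhesion genes 5 rose and 1 fell (median 0.05). Itgb1, the beta chain of the VLA integrins, stood at 0.53, 0.31 and 0.02 in the WT arrays and 2.42, 2.46 and 2.91 in the Y136F arrays, 4.95-fold higher (difference 2.31 ± 0.27, adjusted p = 0.000134). Itgb3, the beta chain of the vitronectin receptor, stood at 1.86, 1.72 and 1.82 in the WT arrays and 3.06, 2.90 and 3.0 in the Y136F arrays and rose by 1.19 ± 0.16. Of 29 galectin, S100, annexin and cytoskeleton genes, 8 rose and none fell (median 0.30). Lgals3, which encodes galectin 3, stood at -0.73, -0.54 and -0.56 in the WT arrays and 2.13, 1.84 and 1.82 in the Y136F arrays, 5.8-fold higher (2.54 ± 0.23, adjusted p = 1.07e-05). The gap between the groups far exceeded the range within either group. Anxa2, an annexin of the cell cortex, rose by 2.37 ± 0.46; S100a6 rose by 2.33 ± 0.52, a call lost without single arrays (up to 0.0784). Pdcd1, the inhibitory receptor PD-1, stood at 0.08, -0.48 and -0.62 in the WT arrays and 1.57, 1.6 and 1.81 in the Y136F arrays, 4-fold higher (2.0 ± 0.40, adjusted p = 0.00681, at most 0.045 with 1 array left out). Pdcd1 was 1 of 4 rises among 16 coinhibitory receptors and ectoenzymes, with Lilrb4a (2.35 ± 0.36), Entpd1 (1.47 ± 0.33) and Pdcd1lg2 (1.14 ± 0.26); Ctla4 differed by -0.58 ± 0.24 (adjusted p = 0.25). The calls of Entpd1 and Pdcd1lg2 were lost without single arrays (up to 0.108 and 0.107).

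Among 28 effector and memory transcription factors, 9 rose and none fell (median 0.61). Eomes, a factor of cytotoxic and memory cells, stood at -2.21, -1.95 and -2.00 in the WT arrays and 0.13, 0.94 and 0.64 in the Y136F arrays, 6.16-fold higher (difference 2.62 ± 0.39, adjusted p = 0.000861). Bhlhe40, which supports cytokine production, stood at -2.22, -2.38 and -2.33 in the WT arrays and -0.36, -0.37 and 0.01 in the Y136F arrays, 4.2-fold higher (2.07 ± 0.23, adjusted p = 0.0001). Neither gene's groups overlapped. Nfil3 rose by 1.99 ± 0.27, Id2 by 1.88 ± 0.31 and Rora by 1.75 ± 0.29, and Prdm1, which encodes Blimp-1, by 1.20 ± 0.25 (up to 0.0768 without 1 array). Tbx21, the T-bet gene, differed by 0.02 ± 0.36 (adjusted p = 0.984). Of 17 Th2 genes 3 rose and none fell (median 0.56). Gata3, the master factor of Th2 cells, stood at -0.19, 0.04 and -0.31 in the WT arrays and 1.22, 1.52 and 1.58 in the Y136F arrays, 3.01-fold higher (1.59 ± 0.20, adjusted p = 0.000209). Epas1, the hypoxia-inducible factor 2 alpha gene, stood at 0.55, 0.57 and 0.41 in the WT arrays and 3.27, 3.80 and 3.47 in the Y136F arrays, 8.01-fold higher (3.0 ± 0.34, adjusted p = 0.000114), and a second probe showed 1.59. The third Th2 gene was Areg.

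Of 37 naive T cell and quiescence genes, 11 fell, none rose and 26 did not pass. The list median was -0.46 against -0.17 over all genes. Leaving out 1 array gave 7 to 9 falls. With the sex term, 4 falls were called over all arrays and 6 without the sex-mismatched LAT KO arrays. Dapl1, a marker of naive T cells, stood at 3.44, 3.39 and 3.66 in the WT arrays and 0.94, 0.38 and 0.38 in the Y136F arrays, 7.63-fold lower (difference -2.93 ± 0.23, adjusted p = 2.02e-06). Igfbp4, another gene of resting naive cells, stood at 2.65, 3.13 and 3.22 in the WT arrays and 0.48, 1.30 and 1.02 in the Y136F arrays, 4.18-fold lower (-2.06 ± 0.22, adjusted p = 4.8e-05). Actn1, an actin crosslinker, stood at 3.0, 2.95 and 3.10 in the WT arrays and 1.76, 1.74 and 1.95 in the Y136F arrays and fell by 1.2 on the log2 scale (adjusted p = 8.91e-05). For each of these 3 genes the gap between the groups exceeded the range within either group. Other falls were St8sia6 (-1.33 ± 0.19) and Cd55 (-0.88 ± 0.16). The quiescence factors Klf2 (-0.50 ± 0.25) and Foxo1 (-0.49 ± 0.14) and the naive cell factors Lef1 (-0.61 ± 0.20) and Tcf7 (-0.15 ± 0.18) did not pass (adjusted p = 0.331, 0.0691, 0.13 and 0.681). The interleukin 7 receptor gene Il7r, which naive cells need to survive, differed by -0.13 ± 0.23 (adjusted p = 0.776). In these sorted populations, a smaller share of cells with a transcript and less of it per cell cannot be told apart, and the same holds for the rises. 

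**Figure D3:**
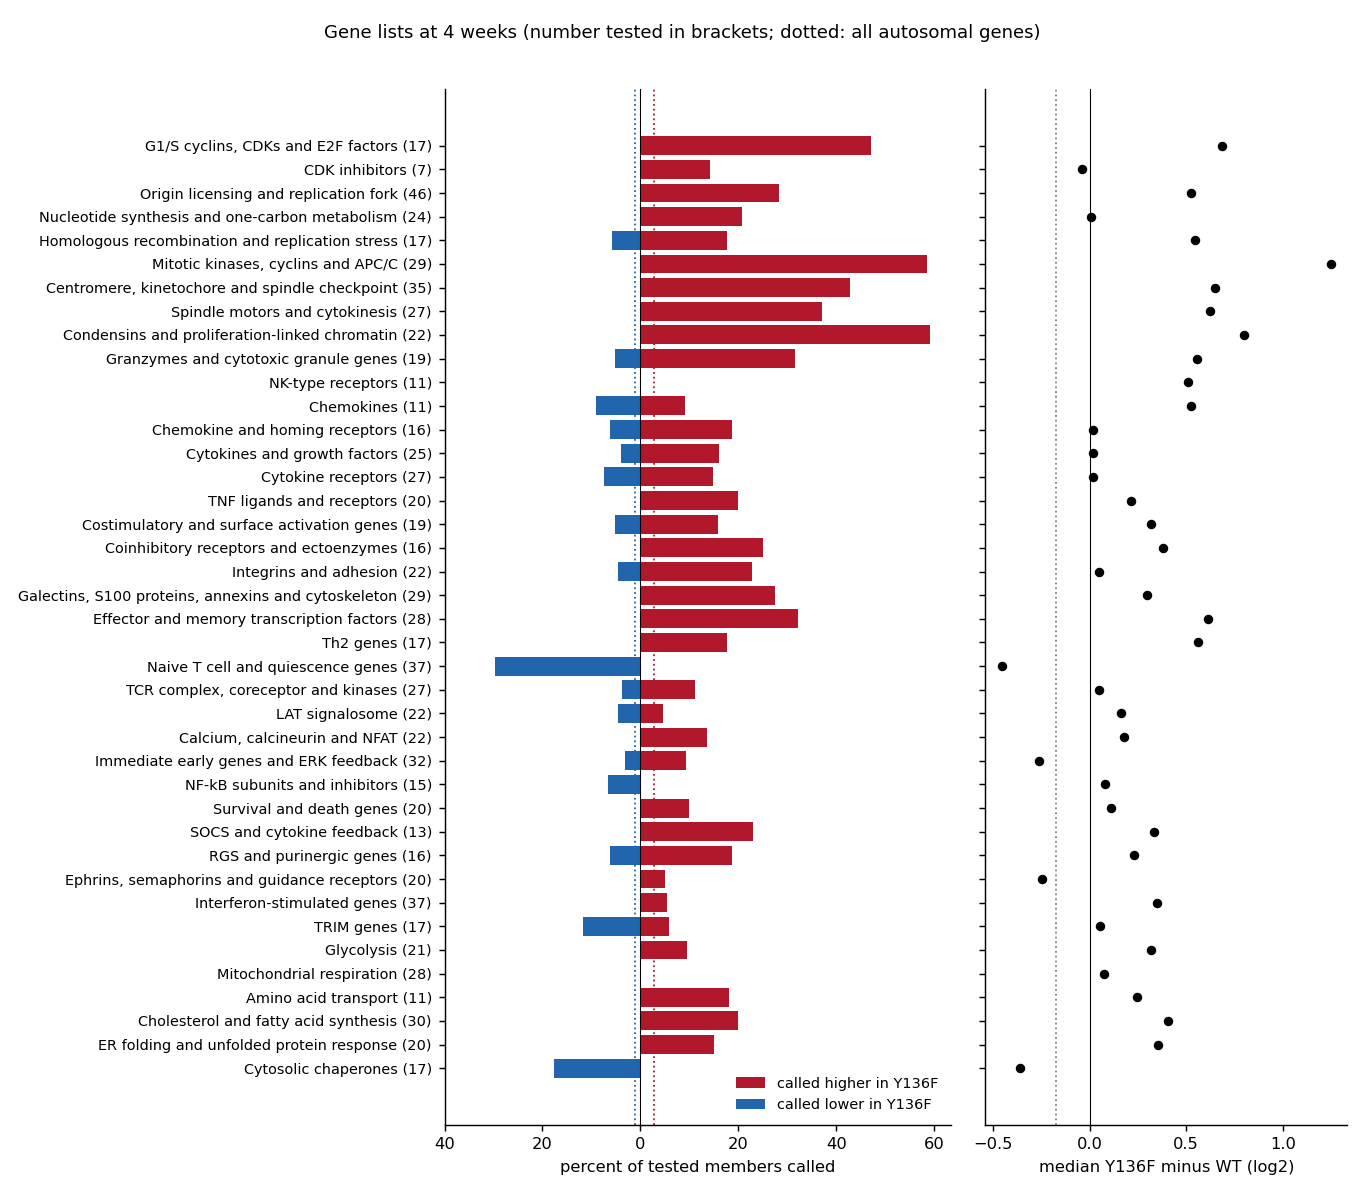
Percent of the measured members of each gene list called higher or lower in Y136F than in WT cells at 4 weeks, and the median log2 difference of each list; the dotted lines mark all autosomal genes (2.86% higher, 1.15% lower, median -0.17). Cell cycle lists reach the highest shares of rises and the naive list the highest share of falls among the lists with over 20 members. The lists were written with earlier results of these data known.

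Most measured genes around the TCR did not pass. The share of rises in the lists below ran from 9.38% to 13.6%, against 2.86% over all autosomal genes. Of 27 genes of the TCR complex, coreceptors and kinases, 3 rose (Cd5, Cd6 and Trat1) and 1 fell (median 0.05). Cd247, the signalling zeta chain, stood at 3.31, 3.30 and 3.54 in the WT arrays and 2.36, 2.44 and 2.72 in the Y136F arrays and fell by 0.87 on the log2 scale (adjusted p = 0.00962). Cd5, a receptor that tracks and dampens TCR signals, rose by 0.65 ± 0.16, and Cd6, its relative, by 0.76 ± 0.18. All 4 of these calls were lost when single arrays were left out (adjusted p up to 0.0608 for Cd247, 0.195 for Cd5, 0.12 for Cd6 and 0.093 for Trat1). Of 22 calcium, calcineurin and NFAT genes 3 rose: Ppp3cc, a catalytic subunit of calcineurin, by 1.63 ± 0.24, the calcium release channel gene Itpr1 by 1.02 ± 0.15, and Nfatc1 by 0.89 ± 0.19, whose call was lost without single arrays (up to 0.0886). Immediate early genes, which TCR signals switch on within the first hour, had 3 rises and 1 fall among 32 (median -0.26). Jun rose by 1.90 ± 0.34 (adjusted p = 0.00372) and Dusp10, a phosphatase of the JNK and p38 kinases, by 1.72 ± 0.29, while the call of Jund (0.79 ± 0.18) was lost without single arrays (up to 0.114). Irf4, a factor whose level follows TCR signal strength, stood at 0.32, -0.03 and 0.06 in the WT arrays and -0.95, -0.87 and -0.99 in the Y136F arrays and fell by 1.05 on the log2 scale (adjusted p = 0.0157, up to 0.0677 without 1 array). Nr4a1, the gene of Nur77, stood at -0.69, -0.36 and -0.57 in the WT arrays and -1.30, -1.0 and -0.82 in the Y136F arrays; its difference of -0.49 ± 0.15 did not pass (adjusted p = 0.1). Egr2 differed by -0.16 ± 0.27 (adjusted p = 0.773).

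Several of the largest rises belonged to genes outside these lists or to genes better known from other cells. Sostdc1, a secreted antagonist of bone morphogenetic protein signals, stood at -2.69, -4.12 and -4.11 in the WT arrays and 1.23, 1.22 and 1.54 in the Y136F arrays, 31.3-fold higher (difference 4.97 ± 1.01, adjusted p = 0.00811, at most 0.0478 with 1 array left out). Efna5, which encodes a membrane-bound ephrin, stood at -3.20, -3.26 and -2.97 in the WT arrays and 0.84, 1.46 and 1.4 in the Y136F arrays, 20.8-fold higher (4.38 ± 0.66, adjusted p = 0.000987). The 3 Y136F values of both genes were above the 75th percentile of the array and the WT values below it. Hdc, the enzyme that makes histamine, stood at -1.43, -2.07 and -1.76 in the WT arrays and 1.33, 1.64 and 1.45 in the Y136F arrays, 9.36-fold higher (3.23 ± 0.22, adjusted p = 4.53e-07). Hrh4, a histamine receptor, stood at -4.38, -4.01 and -3.93 in the WT arrays and -0.64, -0.42 and -0.38 in the Y136F arrays, 12.4-fold higher (3.63 ± 0.44, adjusted p = 0.000197). Cpa3, a carboxypeptidase of mast cells, stood at -6.60, -5.85 and -5.67 in the WT arrays and -2.46, -0.66 and -3.07 in the Y136F arrays; its rise of 3.98 ± 0.82 (adjusted p = 0.00951) was not called without Y136F replicate 2 (adjusted p = 0.0677). Jchain, the joining chain of polymeric antibodies, rose 9.13-fold (3.19 ± 0.53, adjusted p = 0.00209). Dnase1l3, a secreted nuclease, rose by 3.17 ± 0.38, and the protease gene Bace2 rose by 3.14 ± 0.56 on the probe used. A second Bace2 probe, the brighter one in WT arrays, showed -1.14, and the call was lost with the mean over probes.

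The largest fall was that of Trim12a, of the tripartite motif family. It stood at 2.99, 2.70 and 2.64 in the WT arrays and -2.88, -3.03 and -3.93 in the Y136F arrays, 66.5-fold lower (difference -6.06 ± 0.23, adjusted p = 5.92e-11), with a second probe at -1.42. Trim12c, a near copy that the probes may share, fell by 0.72 on the log2 scale (adjusted p = 0.0499; lost without single arrays, up to 0.199). At 1 week Trim12a differed between Y136F and WT by 0.47 ± 0.23 (adjusted p = 0.834). Among the other large falls, Ncmap stood at -0.60, -1.26 and -0.87 in the WT arrays and -2.75, -3.32 and -3.16 in the Y136F arrays (-2.17 ± 0.29, adjusted p = 0.000403), Adh1, an alcohol dehydrogenase, fell by 1.91 and the adhesion gene Amigo2 by 1.91 on the log2 scale. Apol9b, an apolipoprotein L family member, stood at 3.82, 3.83 and 3.94 in the WT arrays and 2.28, 2.28 and 2.02 in the Y136F arrays, 3.18-fold lower (adjusted p = 1.07e-05). Rab6b, Spaca1 and Scg5 fell by 2.18, 1.90 and 1.65 on the log2 scale, and all 3 calls were lost with the sex term over 16 arrays (adjusted p = 0.0949, 0.0513 and 0.0884 by limma). The calls of Drd1 (-3.57 ± 0.95), Ankrd33b (-2.34 ± 0.55), Adam23 (-2.13 ± 0.52), Saa3 (-1.88 ± 0.48) and Adgrg1 (-1.88 ± 0.46) were lost without single arrays, with adjusted p up to 0.194, 0.146, 0.184, 0.183 and 0.188. Trim12a, Trim12c and Saa3 lie on chromosome 7, as does Lat. Of 1495 measured genes of chromosome 7, 26 were higher and 17 lower (2.88% called, against 2.61% to 5.08% on the other autosomes), and of the 100 measured genes nearest to Lat in gene order, 3 were called.

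Interferon-stimulated genes, of which 37 were measured, had 2 rises and no fall (median 0.35). The antiviral Oas3 stood at 1.88, 1.99 and 0.99 in the WT arrays and 3.11, 3.02 and 3.35 in the Y136F arrays and rose by 1.54 ± 0.31 (adjusted p = 0.00818); without WT replicate 3, the lowest WT array, it was not called (adjusted p = 0.0633). Parp12 rose by 1.19 ± 0.23. Irf7, the main regulator of the group, differed by 0.73 ± 0.30 (adjusted p = 0.228). Averaged over 36 of these genes, the WT arrays lay at 0.38, 0.05 and -0.43 relative to their own mean and the Y136F arrays at 0.55, 0.27 and 0.52, so the groups overlapped. The list medians in the other comparisons were 0.84 for Y136F against WT at 1 week and 1.0 for LAT KO against WT at 4 weeks (0.97 without the sex-mismatched arrays), the latter with the same WT arrays.

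Over the metabolic lists, 13 of 127 measured genes rose and 3 fell (median 0.18). The share of rises, 10.2%, was below the 37.9% of the cell cycle lists and the 21.1% of the effector lists. Of 30 cholesterol and fatty acid genes 6 rose and none fell (median 0.41). Fdps rose by 0.78 ± 0.18, Sqle by 0.77 ± 0.18 and Scd2 by 0.86 ± 0.21, all enzymes of lipid synthesis, and their calls and that of Fasn were lost without single arrays. None of 28 mitochondrial respiration genes was called (median 0.08), and 2 of 21 glycolysis genes rose, Tpi1 by 0.97 ± 0.20 and Pgam1 by 0.66 ± 0.14. The call of Pgam1 was lost without single arrays (up to 0.0642), and both were lost with the sex term over 16 arrays (adjusted p = 0.163 for Tpi1 and 0.427 for Pgam1 by limma). Of 20 genes of folding in the endoplasmic reticulum 3 rose: Xbp1, the factor of the unfolded protein response, by 1.31 ± 0.25, Creld2 by 1.13 ± 0.21 and Sdf2l1 by 1.18 ± 0.27, a call lost without single arrays (up to 0.094). Cytosolic chaperones had 3 falls and no rise among 17 (median -0.36), all in the DnaJ family: Dnajb4 fell by 0.89, Dnaja1 by 0.74 and Dnajb1 by 0.74 on the log2 scale (adjusted p = 0.000987, 0.0136 and 0.0185). Dnajb4 kept its call with any 1 array left out, and the other two did not.

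Markers of other cell types are given because a sorted population can hold them. The sums below add the linear signals of those list genes with a value on all 6 arrays, in units of the array's 75th percentile. For mast cells and basophils, 3 of 14 genes rose (Hdc, Hrh4 and Cpa3) and the sum ran from 3.50 to 4.35 in WT and from 6.22 to 10.3 in Y136F arrays, or from 3.13 to 4.05 and 3.49 to 7.20 without Hdc, the brightest. The other 11 did not pass, among them the IgE receptor genes Fcer1a (-0.45 ± 0.29) and Ms4a2 (-0.09 ± 0.71), the basophil protease gene Mcpt8 (-0.51 ± 0.38), the factor gene Gata2 (1.46 ± 0.91) and the mast cell protease genes Mcpt4 (0.99 ± 0.42), Cma1 (0.89 ± 0.38) and Tpsb2 (-0.41 ± 0.35). Gata2, Mcpt4, Cma1, Tpsb2 and Cpa3 were each highest on Y136F replicate 2, the array without which Cpa3 was not called. For plasma cells, 4 of 10 rose (Jchain, Prdm1, Xbp1 and Mzb1) and Irf4 fell, with sums of 7.49 to 8.52 and 13.1 to 14.4; the calls of Mzb1 and Prdm1 were lost without single arrays (up to 0.159 and 0.0768), and Sdc1, their surface marker, differed by 0.01 ± 0.25. For CD8 T cells, 2 of 6 rose (Eomes and Gzmk) with sums of 1.88 to 2.42 and 3.17 to 3.94, and the defining gene Cd8a stood at -1.21, -1.08 and -0.99 in the WT arrays and -0.96, -0.96 and -0.79 in the Y136F arrays. For regulatory T cells, 2 of 13 rose (Entpd1 and Ebi3) and 1 fell (Gpr83, -1.24 ± 0.22). The marker gene Foxp3 is not among these 13, and its values are not given here. Swap70, which did not pass (-0.68 ± 0.33), gave 84.8% of their sum, and without it the sums were 24.2 to 35.2 in WT and 25.6 to 30.3 in Y136F arrays. For neutrophils 2 of 8 rose (S100a8 and Retnlg), with calls lost without single arrays, and sums of 0.825 to 1.20 and 0.919 to 2.22. None of 15 B cell genes was called, with sums of 15.9 to 19.6 and 19.5 to 33.5, nor any of 10 NK and NKT cell genes, with sums of 11.1 to 12.1 and 9.37 to 15.8. The B cell, NK and neutrophil sums were each highest on Y136F replicate 1. Among Y136F arrays, Jchain (1.35, against 0.32 and 0.30) and Mzb1 were also highest there, while Xbp1 was highest on replicate 2 and Prdm1 on replicate 3. Without Y136F replicate 1, Jchain rose by 2.84 (adjusted p = 0.0156 by limma). For gamma-delta T cells none of 6 was called. Maf, a factor gene that other T cells also use, gave 92.9% of their sum, and without it the sums were 0.735 to 1.09 and 0.810 to 1.17; Sox13 was not well above background on any of the 6 arrays. For myeloid cells 1 of 18 rose (Ccr2). Ctss, which did not pass (-0.45 ± 0.14), gave 80.5% of their sum, and without it the sums were 5.02 to 7.12 and 6.22 to 9.81. None of 10 erythroid and platelet genes was called (4.65 to 9.09 and 5.07 to 9.32), and 1 of 10 stromal genes fell (7.11 to 8.59 and 4.37 to 6.03). The part of other cell types in the rises of Gzma, Hdc, Jchain and the cell cycle genes was not tested.

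At 1 week, in other mice of the same genotypes, 4 of 16414 autosomal genes passed (0.0244%), 0 higher and 4 lower, while 1178 had an unadjusted p under 0.05 in limma. The 4 were Nr4a1, Egr3, Irf4 and Slc22a2, an organic cation transporter; Slc22a2 was named after its values were seen. For the 470 genes higher at 4 weeks the median difference was 1.17 at 4 weeks and 0.095 at 1 week, and for the 189 lower genes -0.89 and -0.06. Of the 189, 2 were also called lower at 1 week, and of the 470 none was. The test of the change itself called 116 genes (0.708%), 86 with a more positive difference at 4 weeks and 30 with a more negative one, and it called 82 of the 470 and 23 of the 189 in the same direction. Mki67 differed by 0.16 ± 0.30 at 1 week and its difference changed by 2.20 ± 0.42 (adjusted p = 0.023). Gzma differed by 1.77 ± 0.61 at 1 week (change 4.87 ± 0.87, adjusted p = 0.0141), Hdc by -0.15 ± 0.22 (change 3.38 ± 0.31, 5.19e-05) and Ccr7 by 0.07 ± 0.16 (change -1.43 ± 0.22, 0.00544). Dapl1 showed no difference at 1 week within its error (-0.02 ± 0.23) and a change of -2.92 ± 0.32 (adjusted p = 0.00043). Nr4a1 went the other way: it was lower at 1 week by 1.6 on the log2 scale (adjusted p = 0.00022), and its difference moved up by 1.11 ± 0.22 towards 4 weeks (adjusted p = 0.0271). Gzmb, Aurka, Top2a and Ifng did not pass this test (adjusted p = 0.126, 0.0751, 0.0936 and 0.0777), so their difference at 4 weeks is not shown to differ from that at 1 week. Without the 2 LAT KO arrays that go against their label, the test of the change called 276 with a more positive and 67 with a more negative difference.

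**Figure D4:**
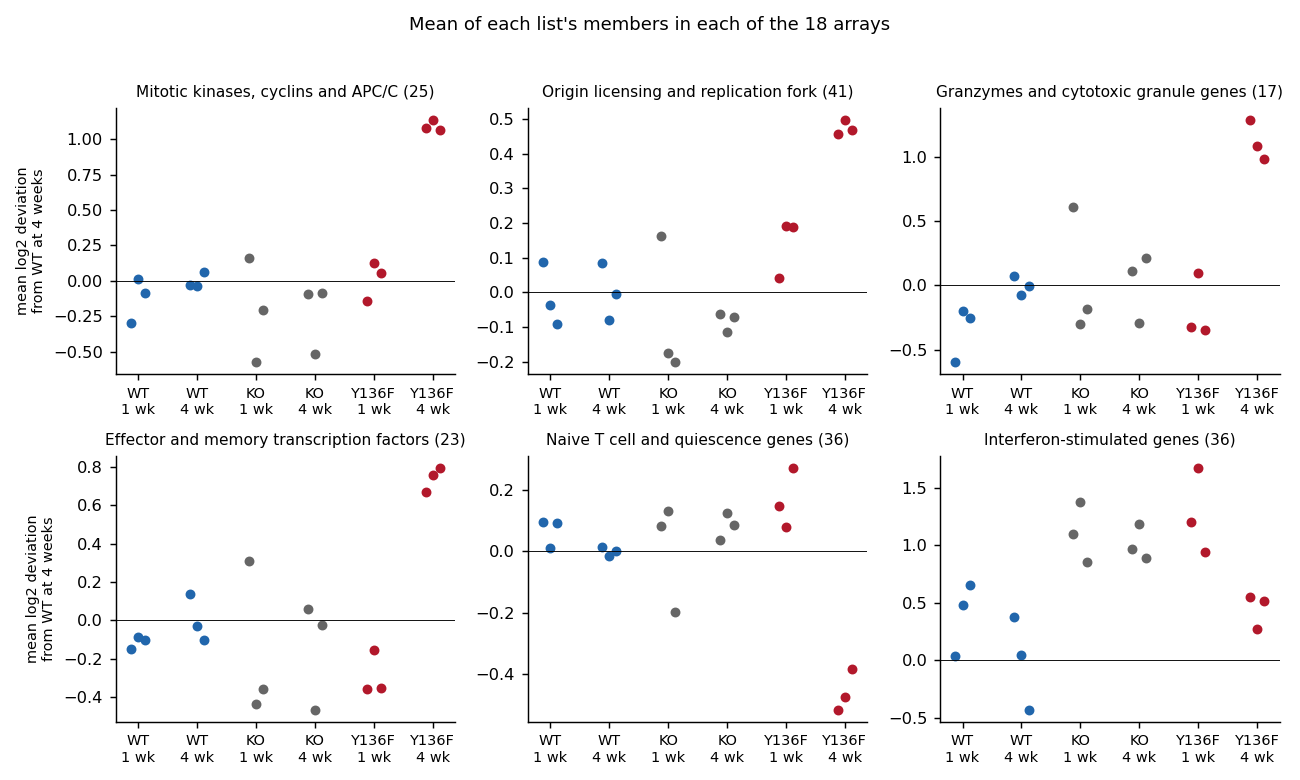
Mean deviation of 6 gene lists from their 4-week WT mean (y axis, log2 units) in each of the 18 arrays, by group (x axis); each point is 1 array. In the 4-week Y136F arrays the mitotic list lies between 1.06 and 1.13 and in all other arrays between -0.57 and 0.16, and the naive list lies between -0.52 and -0.38 against -0.20 to 0.27.

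Within Y136F cells, where both times were female, 767 autosomal genes were higher at 4 weeks than at 1 week (4.68%) and 644 lower (3.93%). This comparison shares the 4-week Y136F arrays with the one against WT. Mki67 was higher at 4 weeks by 2.30 ± 0.30 (adjusted p = 0.000202), Gzma by 4.86 ± 0.61 (0.000162), Lgals3 by 2.89 ± 0.23 (2.05e-06) and Hdc by 3.80 ± 0.22 (3.15e-08). Dapl1 was lower by 2.90 on the log2 scale (1.95e-06) and Ccr7 by 1.48 (3.67e-05). Of the cell cycle genes 97 of 224 were called higher and 5 lower, and of the naive genes 17 of 37 lower and none higher. Between WT cells of 4 weeks (all male) and 1 week (2 female and 1 male by label) limma called 0 autosomal genes of 16408 (0%), with 3333 at an unadjusted p under 0.05.

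Against LAT KO cells of 4 weeks, whose mice were labelled male, 461 autosomal genes were higher in Y136F cells (2.81%) and 200 lower (1.22%); without the sex-mismatched LAT KO arrays 378 and 99 were called. In the values that follow, those in brackets are without these arrays, except for percentages and named p-values. Cell cycle genes were higher in Y136F cells here too, 111 of 224 with 1 lower (91 and 1) and a median of 0.71 (0.69), as were 63 of 251 effector genes with 7 lower (58 and 3). This comparison shares the Y136F arrays with the one against WT, and so the counts are not independent. LAT KO against WT called 20 genes (0.122%), 12 higher and 8 lower (4 and 6). None of the 20 was in the cell cycle, effector or naive lists, whereas without the sex-mismatched arrays 1 effector gene was called higher, Gzma (adjusted p = 0.0459 by limma), and 1 lower, Tnfrsf9, a costimulatory receptor named after its values were seen. Mki67 was higher in Y136F than in LAT KO cells by 2.54 ± 0.30 (2.27), Gzma by 4.42 ± 0.61 (4.19) and Hdc by 3.49 ± 0.22 (3.30). The LAT KO minus WT differences of these genes were -0.18 ± 0.30 (0.09), 2.22 ± 0.61 (2.45) and -0.26 ± 0.22 (-0.07). Trim12a was lower in Y136F than in LAT KO cells, with a difference of -6.55 ± 0.23 (-6.39), as was Dapl1, with -2.30 ± 0.23 (-2.11). Among immediate early genes 11 of 32 were higher in Y136F than in LAT KO cells and none lower (10 and none). Nr4a1 was higher by 1.20 ± 0.15 (1.17) and Irf4 by 1.07 ± 0.23 (1.20), with adjusted p of 0.000244 and 0.0141 (0.000834 and 0.0186) in limma. Their LAT KO minus WT differences were -1.70 ± 0.15 (-1.66) and -2.12 ± 0.23 (-2.26).

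**Figure D5:**
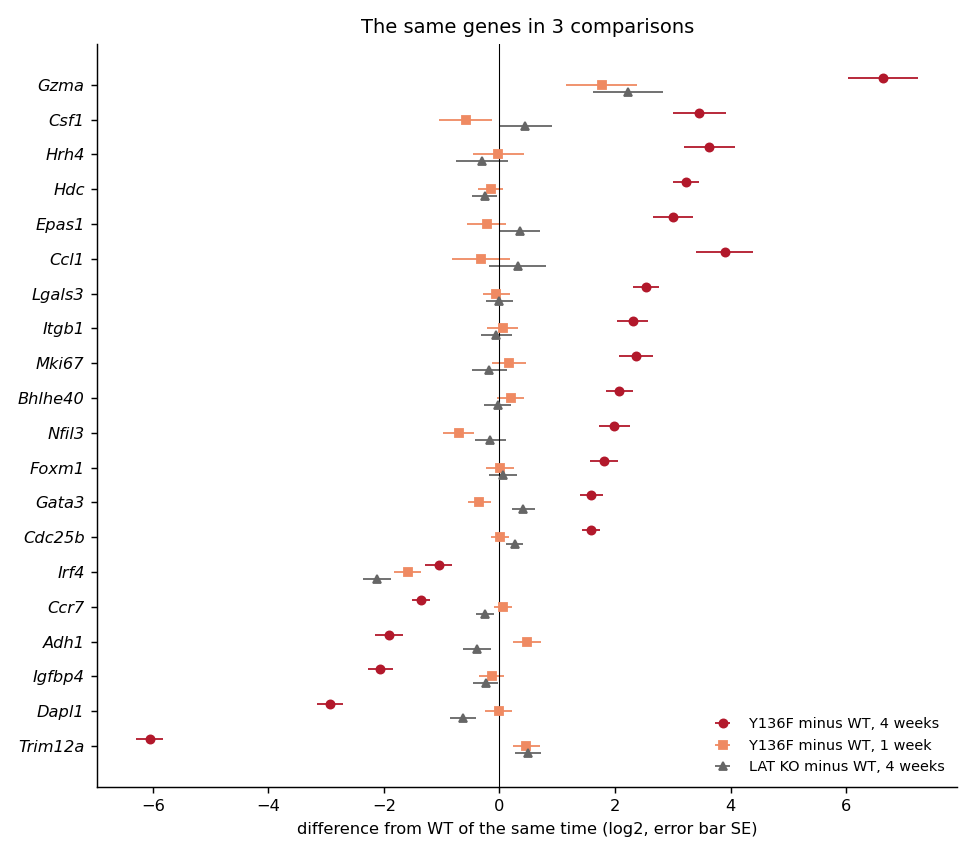
Log2 differences (x axis) of 20 genes (y axis) for Y136F minus WT at 4 weeks, Y136F minus WT at 1 week and LAT KO minus WT at 4 weeks; points are limma estimates and bars are ± 1 SE. The first and the last comparison share their WT arrays. The 4-week Y136F estimates stand apart from the other two for Gzma, Hdc and Trim12a.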

How the data were processed

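RNA was labelled with Cy3 and hybridised to Agilent mouse 4x44k arrays, 1 mouse per array. Per the file headers, Agilent Feature Extraction 10.5.1.1 produced the deposited spot intensity, a background-corrected processed signal on a linear scale; the submitters' processing notes give version 10.5 and also limma. A series matrix with the authors' own log2 values was used only as an alternative; how the authors centred it is not given in the sources used here. From the intensity, log2 values minus each array's 75th percentile over non-control spots were computed, outlier spots were left out (187 to 952 on the 6 arrays), and spots of 1 probe were averaged. Accessions were named through a RefSeq table (GRCm38.p6), which named 24844 of 41174 probes (17178 genes). The brightest probe of a gene was used if well above background on at least 3 of the 18 arrays.

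Under R 4.3.3, limma 3.58.1 with statmod 1.5.0 fitted 1 mean per group over all 18 arrays with an intensity trend (12 residual and 5.424 prior degrees of freedom); two-sided p-values were Benjamini-Hochberg adjusted over all genes and unnamed sequences of a comparison. Errors of differences are SE with 3 mice per group. The series text gives 3 mice per genotype; their number limits the precision. The code was tested on simulated data. Figures were drawn with matplotlib.

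The gene lists and the arrays compared were chosen with earlier results of these data known. Named genes are the 15 largest rises and 15 largest falls whose groups do not overlap, up to 5 called members of each list by p and the first 2 written in it, Lat, and the 5 largest calls in each direction of the change and of Y136F against LAT KO; other list members are named as examples chosen after their values were seen. Alternatives covered background correction, normalization, probe rules, slide, sex, replicate number, trend, weights and single arrays left out; leaving out 2 LAT KO arrays, alone and with a sex term, and Y136F at 4 against 1 week were added after seeing the data. X and Y genes and unnamed sequences enter the adjustment and are not described. Some items are not reported here.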

Additional observations from a re-analysis of the deposited data

Results flagged for a closer look

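For 46 named genes, the Y136F minus WT difference at 4 weeks differed from that at 1 week by the interaction test of limma at an adjusted p of 0.05. The numbers in brackets are the change of the log2 difference from 1 to 4 weeks. Among cell cycle genes these were Asf1b (1.46), Cdc25b (1.58), Cdk6 (1.67), Cdt1 (0.99), Cenpa (1.44), Cenpf (1.70), E2f3 (1.30), Foxm1 (1.79), Mki67 (2.20), Racgap1 (1.36) and Stmn1 (1.51). Among effector, cytokine, receptor and adhesion genes they were Alcam (1.51), Bhlhe40 (1.88), Ccl1 (4.22), Ccr2 (2.52), Csf1 (4.05), Fasl (1.33), Gzma (4.87), Itgb1 (2.25), Itgb3 (1.52), Lgals3 (2.59), Nfil3 (2.70) and Slpi (3.98). The Th2-linked genes were Epas1 (3.23) and Gata3 (1.94), and the histamine genes Hdc (3.38) and Hrh4 (3.65). Signalling genes were Cish (1.74), Dok2 (1.35), Nfatc1 (1.41), Nr4a1 (1.11) and Rgs16 (1.71). Naive cell genes, with a change below 0, were Actn1 (-1.07), Ccr7 (-1.43), Dapl1 (-2.92), Igfbp4 (-1.93) and St8sia6 (-1.26). Other genes with a positive change were Dnase1l3 (3.0) and Efna5 (4.67), and others with a negative one were Adh1 (-2.39), Amigo2 (-2.08), Apol9b (-0.99), Slc16a5 (-1.54), Trim12a (-6.52), Trim55 (-4.19) and Zfp608 (-2.38). Trim55 was measured on 1 WT and 1 Y136F array of 4 weeks, and its change rests on these. At 4 weeks, Nr4a1, Slc16a5, Trim55 and Zfp608 did not pass the comparison of Y136F with WT. The WT mice were all male at 4 weeks and not at 1 week, and the part of sex in these changes was not tested.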

How the results depend on the processing

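Over 23 alternatives, no called difference among the 226 named genes changed sign. A sex term ended 143 of their calls, or 71 without the 2 LAT KO arrays named below, and leaving out single arrays ended 18 to 47. The counts of 470 higher and 189 lower genes stayed within 1.5 times under normexp, quantile normalization, the series matrix, kept outlier spots, other probe rules and filters, slide as a random or fixed term, no trend and the 6 arrays alone. They moved to 32 and 25 with a sex term, and to 232 and 77 with a sex term after leaving out the 2 LAT KO arrays that go against their sex label; these terms are estimated from the other groups, as sex and genotype coincide at 4 weeks. Leaving out those arrays alone gave 660 and 293. Array weights gave 1371 and 1745, which turns the split to 44% higher, against 71.32%. Leaving out 1 array in turn gave 263 to 468 higher and 81 to 308 lower genes, with 60.31% higher without WT replicate 1. A replicate block gave 463 and 197 over 18 arrays and 389 and 116 over the 6. Deviations of same-numbered mice, which shared a slide, correlated at -0.05, 0.16 and -0.27. With only 3 mice per group, these values cannot show whether the numbers also pair the mice. The number of mice, 3 per group, limits the precision; the cause of each of these shifts was not tested.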

Other observations

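Over all 32360 genes and unnamed sequences tested for Y136F against WT at 4 weeks, 793 were higher and 291 lower, of which 470 and 189 are the autosomal genes described. At least 8-fold differences were found in 82 of the 793 and 9 of the 291, against 15 and 2 among the autosomal genes. The rest are sequences that the gene table does not name and genes of the sex chromosomes; they were not analysed here.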
